A study of Mus musculus with 5 samples.

Results

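The regulators of G protein signalling described here are 10 genes, Rgs1, Rgs2, Rgs3, Rgs4, Rgs5, Rgs7, Rgs10, Rgs16, Rgs18 and Rgs19. They were chosen by name, as the probe sets that the platform annotation assigns to 1 of these genes and no other, and they comprise 25 of 45037 probe sets and 10 of 18194 named genes. Expression was measured on Affymetrix whole-genome mouse arrays, on which a probe set is a group of short probes against the 3′ part of a transcript and a gene can have several. RNA came from thoracic aortas of male C57BL/6 mice, whose age is not given in the sources used here, with 6 to 8 aortas pooled per array. The P467L group (3 arrays) carries a transgene for human PPARγ with the dominant negative P467L mutation, driven by the promoter of smooth muscle myosin heavy chain, and the other group (2 arrays) consists of non-transgenic littermates. The promoter directs the transgene to smooth muscle, whereas the RNA is from the whole vessel, with its endothelium, adventitia and any attached tissue.

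RGS proteins speed up GTP hydrolysis by G protein α subunits and so shorten the signal of a receptor after its ligand has bound. In vascular smooth muscle the Gq and G12/13 pathways, driven by angiotensin II, endothelin, noradrenaline and thromboxane, raise calcium and contract the cell, and RGS proteins of the R4 subfamily act on Gq and Gi α subunits. The R4 members here are Rgs1, Rgs2, Rgs3, Rgs4, Rgs5, Rgs16 and Rgs18. Rgs7 belongs to the R7 subfamily, Rgs10 to R12 and Rgs19 to RZ. PPARγ is a nuclear receptor that regulates lipid metabolism and is also active in the vessel wall.

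The arrays had medians of 6.17 to 6.23 in the P467L group and 6.25 in both non-transgenic arrays, on a log2 scale that ran from 3.03 to 14.99. P467L replicate 1 stood apart: its correlation with each other array was 0.985 to 0.991 (0.995 or more between any 2 of the others), and it had 842 probe sets that were 1 log2 unit or more under the lowest of the other 4 arrays. Among the 25 RGS probe sets, 12 had their highest value in this array and 6 their lowest. Non-transgenic replicate 2 was high in stomach transcripts, with Gkn2 (a gastric secreted protein) at 13.3 against 8.79 in non-transgenic replicate 1. All 6 contractile smooth muscle markers, among them Acta2 and Myh11, were at 11.9 or above on every array.

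P467L aortas had lower means than non-transgenic aortas in all 4 probe sets of Rgs5, all 4 of Rgs2 and the single probe set of Rgs7, and higher means in both probe sets of Rgs19. Rgs4 means were higher in 3 of 3 probe sets with overlapping arrays, and Rgs3, Rgs10 and Rgs16 differed by at most 0.18 log2 units. None of these differences passed the test: limma called 0 of the 25 RGS probe sets at an adjusted p of 0.05, as it called 0 of all 45037 (0%), and the smallest adjusted p of an RGS probe set was 0.367. At an unadjusted p of 0.05, 7 RGS probe sets from 4 genes lay past the threshold, against 7.44% of all probe sets. Of the 7, 5 were lower in P467L aortas (background 2.74%) and 2 were higher (background 4.71%). The count was smaller without either non-transgenic array. That leaves 1 array in the group, so lost precision cannot be told apart from the values of the array left out. Without P467L replicate 1 it was 7 lower and 2 higher (background 10.7% in either direction). It was 3 lower and 2 higher without P467L replicate 2 (background 4.9%), and 6 lower and 1 higher without P467L replicate 3 (background 9.32%). The genes were chosen with earlier results of these data known, and probe sets of 1 gene read the same RNA, so these counts describe the members and are no evidence about the family. In whole vessels a lower level can come from fewer cells of a type or from less RNA per cell, and the arrays do not separate them.

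**Figure D1:**
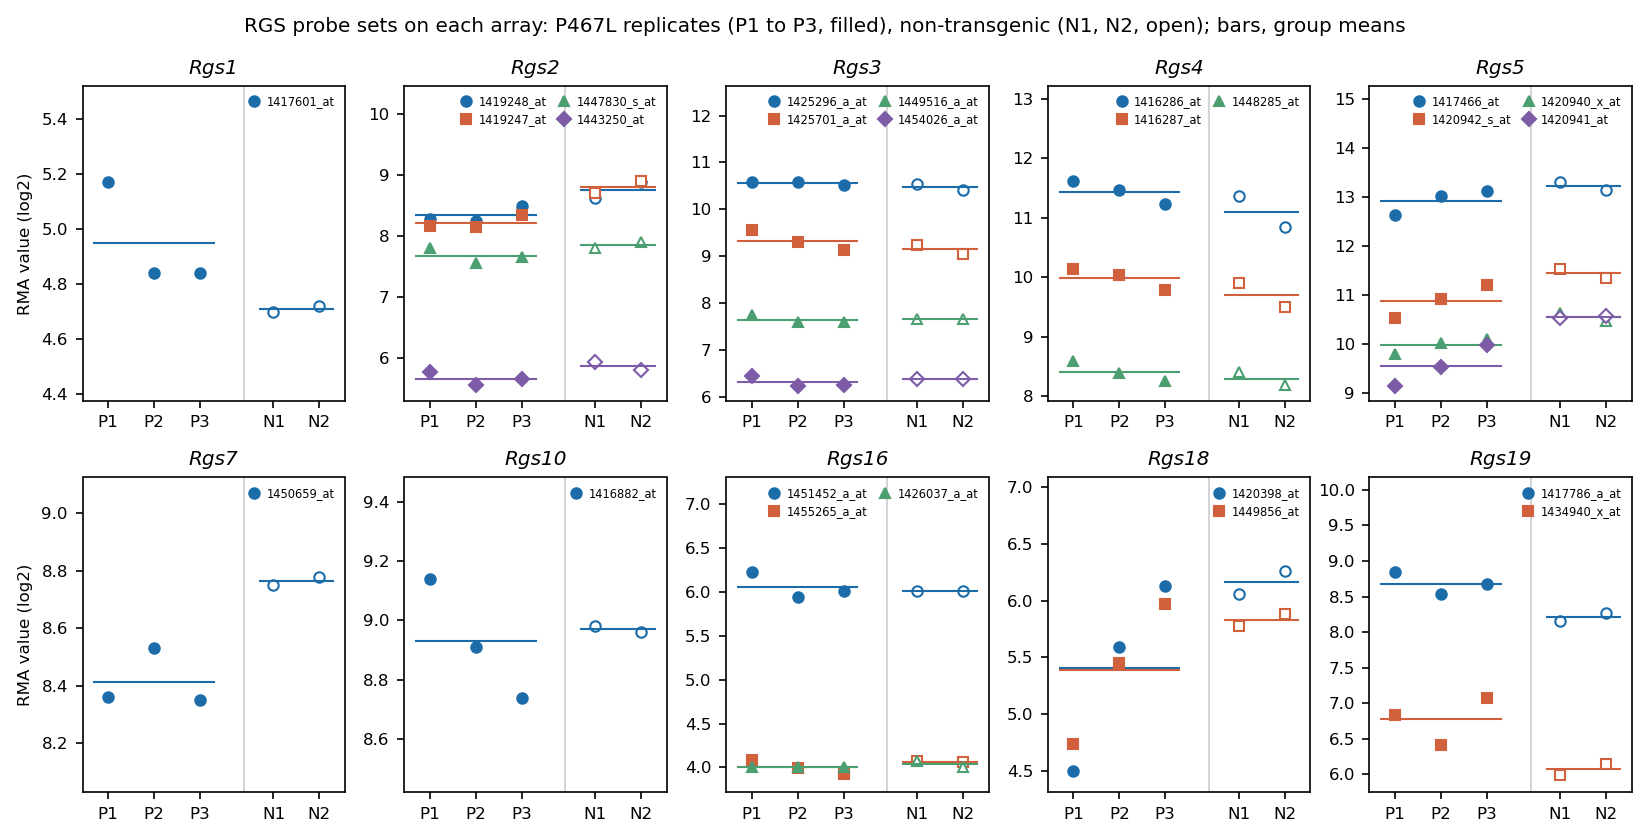
Each panel shows 1 gene, with the RMA value on the log2 scale for P467L replicates 1 to 3 (filled, left) and non-transgenic replicates 1 and 2 (open, right), 1 symbol per probe set and horizontal bars for group means; the axes differ between panels. All P467L points lie below both non-transgenic points in the 4 Rgs5 probe sets and in Rgs7, and above them in both Rgs19 probe sets.

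The P467L arrays all lay below both non-transgenic arrays in 8 of the 25 probe sets (background 7.61% of all probe sets) and all above in 3 (background 11.2%), with overlap in the other 14. The 8 were the 4 of Rgs5, 3 of the 4 of Rgs2 and the 1 of Rgs7. The 3 were both of Rgs19 and the 1 of Rgs1. Some of these counts were larger with 1 array left out, as was the background. Probe sets all above numbered 8 without non-transgenic replicate 1 (background 21.8%) and 7 without P467L replicate 3 (background 18.8%), and those all below numbered 13 without P467L replicate 1 (background 15.5%). The median absolute difference was 0.29 log2 units over the RGS probe sets and 0.07 over all probe sets, while the median signed difference was -0.06 against 0.00. Only 7 of the 25 RGS probe sets lay below the median level of all probe sets, and the background was not matched on level.

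**Figure D2:**
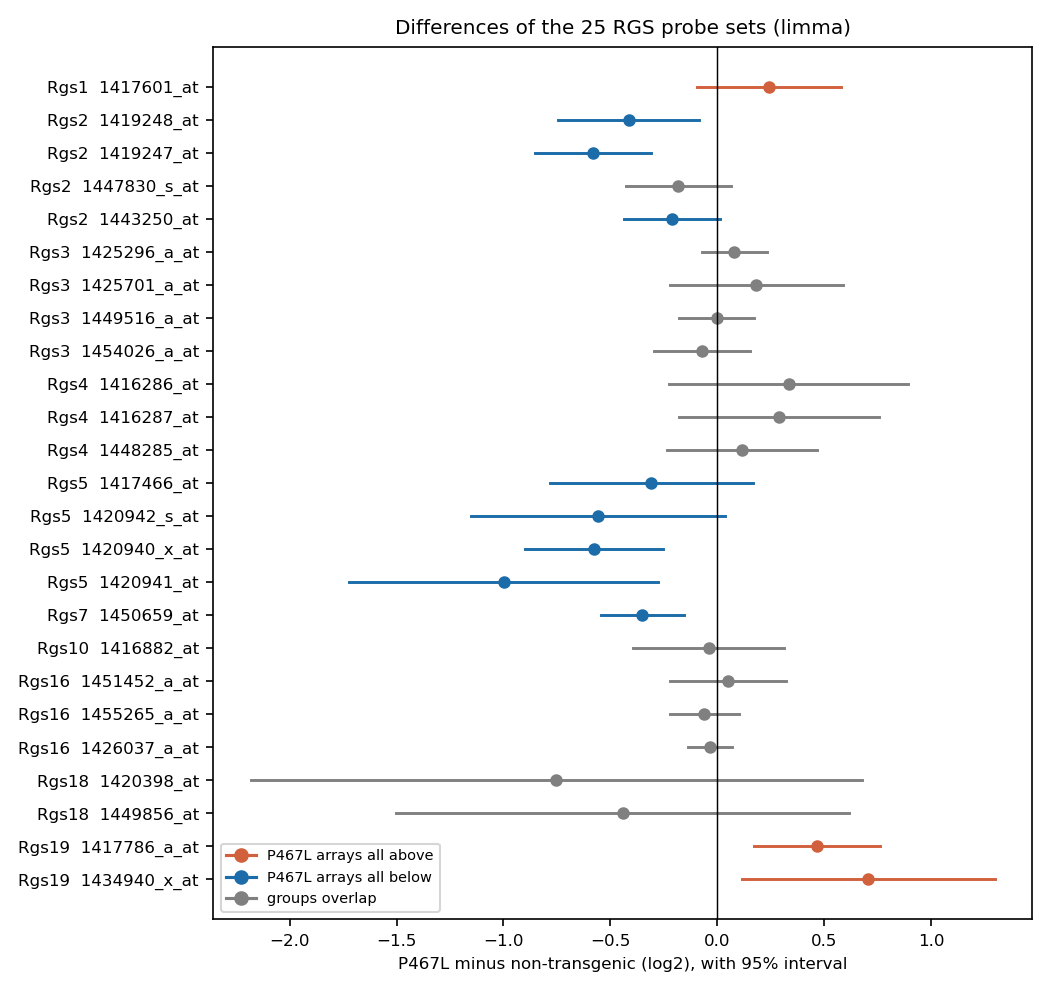
Points are the P467L minus non-transgenic difference of each RGS probe set in log2 units and lines are 95% intervals from limma (n = 3 and 2 arrays); colour marks whether the P467L arrays lay all above, all below or within reach of the non-transgenic arrays. The interval lies apart from 0 in 7 probe sets: 2 each of Rgs5, Rgs2 and Rgs19, and Rgs7.

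Rgs5, which acts on Gq and Gi α subunits and is a marker of arterial smooth muscle and pericytes, had its strongest signal in probe set 1417466_at, at 12.62, 13.02 and 13.11 in P467L replicates 1 to 3, against 13.31 and 13.14 in non-transgenic replicates 1 and 2. The groups did not overlap, but the gap between them was 0.03. The difference was -0.31 (SE 0.17; 95% interval -0.78 to 0.17; adjusted p = 0.784). Probe set 1420941_at measured 9.14, 9.52 and 9.98 in P467L arrays, against 10.53 and 10.56 in non-transgenic arrays. Here the gap between the groups was 0.55. The mean in P467L aortas was 50.1% of the non-transgenic mean, a difference of -0.998 (SE 0.27; 95% interval -1.72 to -0.28; adjusted p = 0.535).

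Probe set 1420940_x_at of Rgs5 measured 9.78, 10.02 and 10.09 in P467L arrays, against 10.62 and 10.46 in non-transgenic arrays, a difference of -0.58 (SE 0.12) and an adjusted p of 0.442. Probe set 1420942_s_at measured 10.53, 10.91 and 11.19 in P467L arrays, against 11.53 and 11.34 in non-transgenic arrays, a difference of -0.56 (SE 0.22) and an adjusted p of 0.705. The suffixes x and s mark probes that the manufacturer lists as able to hybridise to other or several transcripts. In all 4 probe sets P467L replicate 1 was the lowest of the 5 arrays, and P467L replicate 3 was the P467L array nearest to the non-transgenic ones. Without P467L replicate 1 the differences of the 4 were -0.16 (1417466_at), -0.39 (1420942_s_at), -0.49 (1420940_x_at) and -0.80 (1420941_at). The annotation gives 3 of the 4 probe sets the same source sequence record, so they are not separate measurements of the gene.

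Rgs4, which in the mouse genome is the next protein-coding gene to Rgs5 on chromosome 1 and also acts on Gq and Gi, did not show the pattern of its neighbour. Its brightest probe set, 1416286_at, measured 11.61, 11.46 and 11.23 in P467L arrays, against 11.36 and 10.84 in non-transgenic arrays. P467L replicate 3 lay below non-transgenic replicate 1, so the groups overlapped, and the difference of 0.33 (SE 0.21) had a 95% interval of -0.22 to 0.89 (adjusted p = 0.784). Probe set 1416287_at measured 10.13, 10.03 and 9.79 in P467L arrays, against 9.90 and 9.49 in non-transgenic arrays, a difference of 0.29 (SE 0.17). The dimmest, 1448285_at, measured 8.59, 8.39 and 8.25 in P467L arrays, against 8.40 and 8.19 in non-transgenic arrays, a difference of 0.12 (SE 0.13). In all 3 the lowest array was non-transgenic replicate 2, the array high in stomach transcripts, and without it the difference was 0.07 for 1416286_at, 0.083 for 1416287_at and 0.01 for 1448285_at. All 3 probe sets share their source record, so they are not separate measurements of Rgs4. The difference between Rgs4 and Rgs5 was not tested.

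The start regions of Rgs5 and Rgs4 are printed because these neighbours differed in sign, and that of Rgs2 because it is the other R4 gene with 2 probe sets past an unadjusted p of 0.05. Each is a 300-base window of RefSeq on GRCm38.p6, on the gene's own strand, from 250 bases before to 50 bases after the annotated start. Capitals mark TGACG, the core of the cyclic AMP response element, or TATAAA, a form of the TATA box, on either strand. Rgs5 lies at chr1:169655251-169655550 on the plus strand. Rgs4 lies at chr1:169747593-169747892 and Rgs2 at chr1:144004100-144004399, both on the minus strand.
Rgs5: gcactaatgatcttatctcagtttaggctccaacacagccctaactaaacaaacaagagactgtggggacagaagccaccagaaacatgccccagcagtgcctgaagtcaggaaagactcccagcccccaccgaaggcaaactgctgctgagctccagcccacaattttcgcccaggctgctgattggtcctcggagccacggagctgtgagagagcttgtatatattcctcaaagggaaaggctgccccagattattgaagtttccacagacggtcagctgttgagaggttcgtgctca
Rgs4: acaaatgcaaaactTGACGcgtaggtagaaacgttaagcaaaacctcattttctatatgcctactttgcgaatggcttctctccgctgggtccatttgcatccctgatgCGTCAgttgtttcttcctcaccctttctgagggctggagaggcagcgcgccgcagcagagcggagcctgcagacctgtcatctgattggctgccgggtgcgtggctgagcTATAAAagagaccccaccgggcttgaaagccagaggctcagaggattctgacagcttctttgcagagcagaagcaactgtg
Rgs2: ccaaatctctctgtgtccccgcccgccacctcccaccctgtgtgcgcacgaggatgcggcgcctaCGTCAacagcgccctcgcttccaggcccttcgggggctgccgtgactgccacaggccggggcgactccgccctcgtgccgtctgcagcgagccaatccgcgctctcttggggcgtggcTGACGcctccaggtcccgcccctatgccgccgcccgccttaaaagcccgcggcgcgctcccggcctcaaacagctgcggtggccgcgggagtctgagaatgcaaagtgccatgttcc

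Besides TGACG and TATAAA, the windows were searched on both strands for AGGTCA and for the CArG box. The Rgs5 window held none of these, the Rgs4 window held TATAAA from -31 to -26 and TGACG on either strand in 2 places, and the Rgs2 window held TGACG on either strand in 2 places, from -185 to -181 and from -67 to -63. TGACG was present on either strand in 20.8% of 32851 such windows of the mouse genome and TATAAA in 13.6%. AGGTCA, the hexamer bound by PPARγ and other nuclear receptors, was present in 16.3% of all windows and in 0 of the 11 windows found for 8 of the members. The CArG box, the binding site of serum response factor in smooth muscle genes, was present in 1.63% of all windows and in 0 of those 11. A match is a run of letters only, and its absence from these windows says nothing of sites elsewhere. Other forms of the TATA box were not searched for, so the Rgs5 window is not shown to lack one.

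Rgs2, which prefers Gq α subunits and is a substrate of the cGMP-dependent kinase through which nitric oxide relaxes vessels, measured 8.16, 8.15 and 8.35 in P467L arrays by probe set 1419247_at, against 8.70 and 8.90 in non-transgenic arrays. The gap between the groups was 0.35. P467L aortas had 66.9% of the non-transgenic mean, a difference of -0.58 (SE 0.10; 95% interval -0.85 to -0.31; adjusted p = 0.367), with the smallest adjusted p among the RGS probe sets. Its brightest probe set by mean, 1419248_at, measured 8.28, 8.24 and 8.50 in P467L arrays, against 8.63 and 8.88 in non-transgenic arrays, a difference of -0.42 (SE 0.12) and an adjusted p of 0.560. These 2 probe sets share their source record and ranked the arrays in the same order.

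The other 2 probe sets of Rgs2 showed smaller differences. Probe set 1447830_s_at measured 7.80, 7.55 and 7.65 in P467L arrays, against 7.80 and 7.90 in non-transgenic arrays; P467L replicate 1 equalled non-transgenic replicate 1, and the difference was -0.18 (SE 0.09). The dim probe set 1443250_at measured 5.76, 5.56 and 5.66 in P467L arrays, against 5.94 and 5.80 in non-transgenic arrays, a difference of -0.21 (SE 0.08). With 1 array left out at a time, the difference of 1419247_at ran from -0.68 to -0.48 and that of 1419248_at from -0.54 to -0.29, both smallest in size without non-transgenic replicate 2. P467L replicate 2 was the lowest array in all 4, and P467L replicate 1, the array that stood apart, in none.

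**Figure D3:**
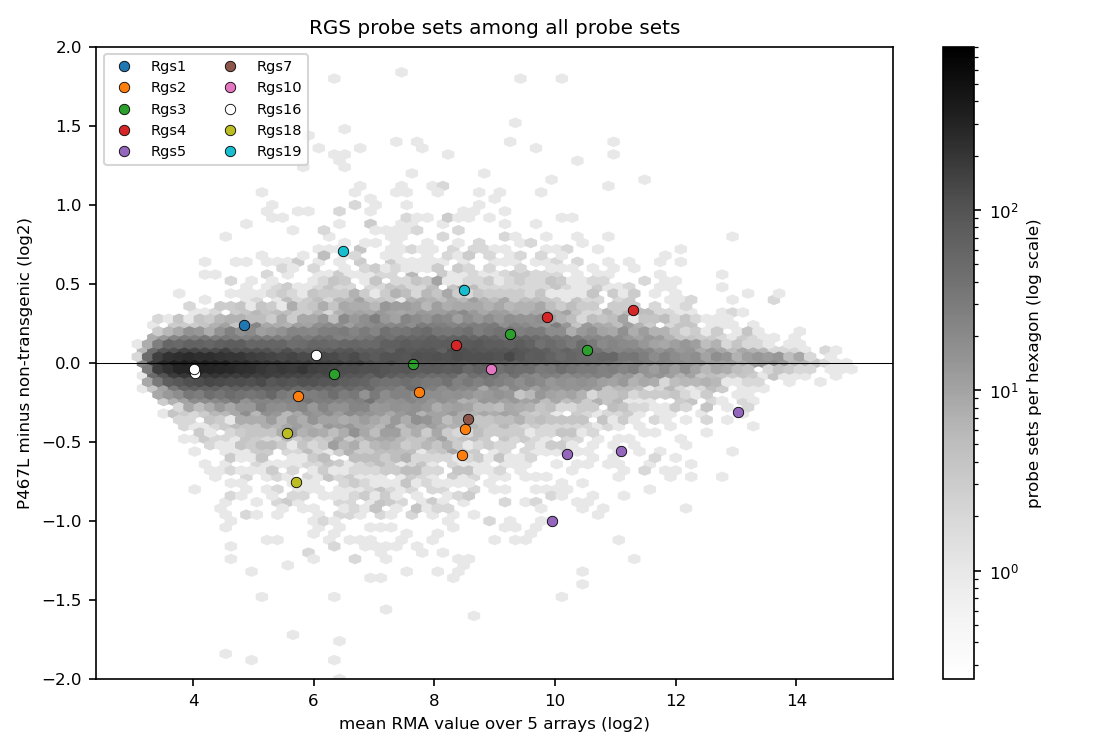
Grey hexagons count all probe sets by mean RMA value over the 5 arrays (x, log2) and P467L minus non-transgenic difference (y, log2), with 15 probe sets beyond 2 log2 units not drawn, and coloured points are the RGS probe sets. The 4 Rgs5 points lie at the lower edge of the cloud at their levels, while the Rgs3, Rgs10 and Rgs16 points lie within it.

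Rgs3, an R4 protein with long and short forms that also binds G protein βγ subunits, gave values that differed little between the genotypes. Its brightest probe set, 1425296_a_at, measured 10.59, 10.58 and 10.51 in P467L arrays, against 10.54 and 10.42 in non-transgenic arrays. The groups overlapped, and the interval of the difference, from -0.07 to 0.23, was the narrowest of the 4 Rgs3 probe sets; the difference itself, 0.08, was 0.02 without non-transgenic replicate 2. Probe set 1425701_a_at was less tight, at 9.55, 9.30 and 9.13 in P467L arrays, against 9.24 and 9.05 in non-transgenic arrays, with an interval from -0.22 to 0.59. Its difference was 0.18 with all arrays and 0.07 without P467L replicate 1. The remaining 2 probe sets differed by -0.07 (1454026_a_at) and -0.0033 (1449516_a_at), with intervals from -0.29 to 0.15 and from -0.18 to 0.17.

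Rgs16, an inducible R4 protein that acts on Gi and Gq, was near the bottom of the scale in 2 of its 3 probe sets, which measured 3.93 to 4.09 on every array. The third, 1451452_a_at, measured 6.23, 5.94 and 6.01 in P467L arrays, against 6.01 in both non-transgenic arrays. The group means differed by 0.05 (SE 0.10), with an interval from -0.22 to 0.32.

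Rgs7, an R7 protein known mainly from neurons, where it acts on Gi and Go as a dimer with the β subunit Gnb5, measured 8.36, 8.53 and 8.35 in P467L arrays, against 8.75 and 8.78 in non-transgenic arrays. All P467L arrays were lower, with a gap of 0.22. The difference was -0.35 (SE 0.07; 95% interval -0.55 to -0.16; adjusted p = 0.438), or 78.4% of the non-transgenic mean. It ran from -0.41 to -0.32 with 1 array left out at a time. Its partner Gnb5 measured 8.15, 8.12 and 8.05 in P467L arrays, against 7.89 and 8.05 in non-transgenic arrays, and its membrane anchor Rgs7bp 9.62, 10.31 and 10.56 in P467L arrays, against 10.31 and 10.30 in non-transgenic arrays. Both partners overlapped between the groups, with differences of 0.14 (SE 0.07) for Gnb5 and -0.14 (SE 0.31) for Rgs7bp. Of 6 neuronal markers 3 were higher and 3 lower in P467L aortas; Stmn2, a neuronal microtubule regulator, measured 7.72, 7.70 and 7.48 in P467L arrays, against 7.29 and 7.10 in non-transgenic arrays, while Snap25, of the synaptic release machinery, lay at 3.55 to 3.65 on every array. The neuronal hydrolase Uchl1 was 0.53 (SE 0.12) higher, with all P467L arrays above. Dbh, the noradrenaline-synthesising enzyme of sympathetic nerves, measured 7.11, 6.96 and 6.92 in P467L arrays, against 7.23 and 7.18 in non-transgenic arrays. The difference of Dbh was -0.21 (SE 0.07). The part of neuronal RNA in the Rgs7 difference was not tested.

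Rgs19, an RZ protein first known as an interactor of Gi α subunits, measured 8.84, 8.53 and 8.67 in P467L arrays by probe set 1417786_a_at, against 8.16 and 8.27 in non-transgenic arrays. The groups were 0.26 apart. The difference was 0.47 (SE 0.11; 95% interval 0.17 to 0.76; adjusted p = 0.485), or 1.38-fold. The dimmer 1434940_x_at measured 6.83, 6.42 and 7.08 in P467L arrays, against 5.99 and 6.15 in non-transgenic arrays, a difference of 0.71 (SE 0.22), or 1.63-fold, with an adjusted p of 0.579. The 2 probe sets come from different source records and differed in which P467L array was highest. The suffix x of 1434940_x_at marks probes listed as able to hybridise to other transcripts. With 1 array left out the difference ran from 0.39 to 0.54 for 1417786_a_at and from 0.56 to 0.89 for 1434940_x_at.

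Rgs10, an R12 protein that acts on Gi and is abundant in immune cells and microglia, measured 9.14, 8.91 and 8.74 in P467L arrays, against 8.98 and 8.96 in non-transgenic arrays. The P467L arrays lay on both sides of the non-transgenic ones, and the difference was -0.04 (SE 0.13), with an interval from -0.39 to 0.31.

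Rgs18, an R4 protein of platelets and their precursors, had the widest spread of the members. Probe set 1420398_at measured 4.50, 5.59 and 6.13 in P467L arrays, against 6.06 and 6.26 in non-transgenic arrays, and 1449856_at measured 4.74, 5.45 and 5.97 in P467L arrays, against 5.78 and 5.88 in non-transgenic arrays. In both, P467L replicate 1 was lowest and P467L replicate 3 within or above the non-transgenic values. These 2 probe sets share their source record, so they are not separate measurements of Rgs18. The difference was -0.75 (SE 0.53) for 1420398_at, with an interval from -2.18 to 0.68, and -0.44 (SE 0.39) for 1449856_at. Without P467L replicate 1 these were -0.30 and -0.12, and that array decided most of the difference. All 6 platelet markers had lower means in P467L aortas, with a median difference of -0.125. Their mean log2 level was 8.72, 8.50 and 8.37 in P467L replicates 1 to 3, against 8.66 and 8.72 in non-transgenic replicates 1 and 2, so that P467L replicate 1, lowest in Rgs18, was the highest of its group. The platelet chemokine Ppbp measured 10.06, 9.92 and 9.83 in P467L arrays, against 10.39 in both non-transgenic arrays. The part of platelet RNA in the Rgs18 difference was not tested.

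Rgs1, an R4 protein of activated lymphocytes that dampens chemokine receptor signalling, was dim, at 5.17, 4.84 and 4.84 in P467L arrays, against 4.70 and 4.72 in non-transgenic arrays. All P467L arrays were higher by at least 0.12, and the difference was 0.24 (SE 0.12; 95% interval -0.10 to 0.58; adjusted p = 0.784). Without P467L replicate 1 it was 0.13. The markers of B cells (3 of 3 measured) and T cells (4 of 4) had lower means in P467L aortas and those of macrophages (6 of 6) higher ones. The median difference of the macrophage markers was 0.226, and 0.09 without P467L replicate 1. Their mean log2 level was 9.91, 9.51 and 9.64 in P467L arrays, against 9.44 and 9.49 in non-transgenic arrays. That of the B cell markers was 6.24, 5.83 and 6.09 in P467L arrays, against 6.22 and 6.42 in non-transgenic arrays, and that of the T cell markers 5.87, 5.79 and 5.53 in P467L arrays, against 5.93 and 5.81 in non-transgenic arrays. Macrophage markers and Rgs1 were both highest in P467L replicate 1, as were both Rgs10 and 1417786_a_at of Rgs19. That array was the highest in 12 of the 25 RGS probe sets, while 1434940_x_at of Rgs19 was highest in P467L replicate 3. The part of macrophage RNA in these values was not tested.

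**Figure D4:**
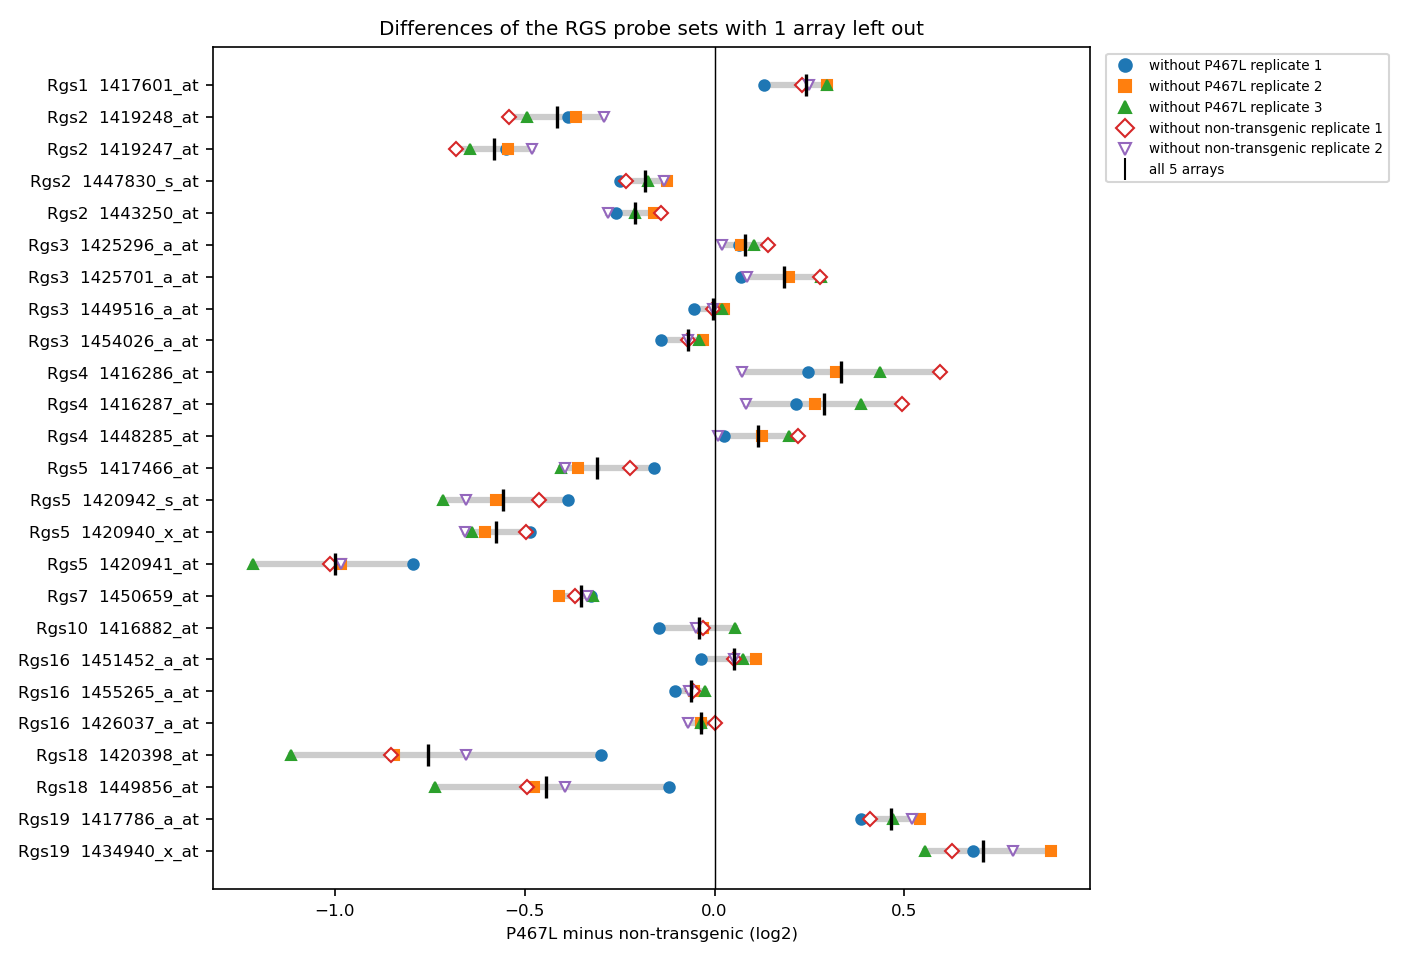
The P467L minus non-transgenic difference (log2) of each RGS probe set is shown with all 5 arrays (bar) and with 1 array left out (symbols, 1 per array; grey band, their range). The differences of Rgs1, Rgs2, Rgs4, Rgs5, Rgs7, Rgs18 and Rgs19 keep their sign in every case. Where the groups do not overlap, leaving out 1 array cannot change the sign. The differences of Rgs18 move towards 0 without P467L replicate 1.

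Rgs1, Rgs2 and Rgs18 lie in a run of 5 neighbouring genes on chromosome 1, with Rgs13 and Rgs21. In this run Rgs2 and Rgs18 had lower means in P467L aortas and Rgs1 a higher mean. Rgs13, a B cell and mast cell member, differed by 0.01, but lay near the bottom of the scale, at 3.38 to 3.42 on every array. A small difference at that level says little. Rgs16 is next to Rgs8, a neuronal R4 member, whose difference was -0.04 at dim values of 4.24 to 4.51. Means of neighbouring genes differed in direction within this run, as they did within the pair of Rgs4 and Rgs5. The 95% intervals of Rgs1, Rgs4 and Rgs18 included 0. So did those of 1417466_at, the brightest probe set of Rgs5, and 1420942_s_at of Rgs5, and of 1447830_s_at and 1443250_at of Rgs2. The contrasts between neighbours were not tested.

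Pericyte markers, which share cells with Rgs5, did not move together. Abcc9, a subunit of an ATP-sensitive potassium channel, measured 11.82, 11.97 and 12.07 in P467L arrays, against 12.40 and 12.49 in non-transgenic arrays, a difference of -0.49 (SE 0.09). Its channel partner Kcnj8 measured 10.39, 10.30 and 10.22 in P467L arrays, against 10.05 and 10.15 in non-transgenic arrays, a difference of 0.20 (SE 0.07), and the proteoglycan Cspg4 differed by 0.27 (SE 0.05). Of the 6 pericyte markers 4 had higher and 2 lower means in P467L aortas. Their mean log2 level was 9.96 to 10.02 in P467L arrays, against 9.94 and 9.96 in non-transgenic arrays. That of the 6 contractile smooth muscle markers was 13.72 to 13.75 in P467L arrays, against 13.71 and 13.70 in non-transgenic arrays. The pericyte means of the 2 groups overlapped between arrays. The part of pericyte and smooth muscle RNA in the Rgs5 and Rgs2 differences was not tested.

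Other genes of the pathway were read from 1 probe set per gene, and limma, with adjustment over all 45037 probe sets, called 0 of them and 0 of all 18194 genes read in this way (0%). With the fit and adjustment on these 18194 alone it called 10, with no RGS member among them. Of the 18194, 9.45% lay past an unadjusted p of 0.05. The list of other RGS domain proteins and partners had 19 of 21 genes measured, 9 with higher and 10 with lower means, a median difference of -0.02, and 0 past an unadjusted p of 0.05. The smallest p values there belonged to Rgs6 and Rgs9, R7 relatives of Rgs7, at -0.16 (SE 0.07) and -0.16 (SE 0.08). Rgs11, also of the R7 subfamily, went the other way at 0.07 (SE 0.15), with overlapping groups. Rgs6 was dim, with a mean of 4.73 over all arrays, and its groups overlapped. Rgs9, known from striatum and retina, measured 8.31, 8.14 and 8.10 in P467L arrays, against 8.37 and 8.32 in non-transgenic arrays, so the groups were only just apart. The median over all genes was 0.02.

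Of 28 G protein subunit genes 27 were measured, 20 with higher and 7 with lower means in P467L aortas, against 56% of all genes with higher means; the median was 0.04, and 2 lay past an unadjusted p of 0.05. These were the γ subunits Gng3 at -0.21 (SE 0.04) and Gng2 at 0.16 (SE 0.03). The α subunits on which the R4 proteins act did not pass: Gna11 measured 0.31 (SE 0.13), Gnaq 0.26 (SE 0.20) and Gnai2 0.04 (SE 0.04), each as the P467L minus non-transgenic difference. Gna11 had all P467L arrays above the non-transgenic ones, at 11.67, 11.49 and 11.26, against 11.18 and 11.15, while Gnaq overlapped.

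Of 41 receptors coupled to Gq or Gi 32 were measured, with a median difference of 0.01 and 4 higher and 2 lower past an unadjusted p of 0.05. Npy1r, the neuropeptide Y receptor of sympathetic vasoconstriction, had the smallest p and averaged 10.05 ± 0.08 in P467L arrays (SD, n = 3), against 9.56 ± 0.08 in non-transgenic arrays (SD, n = 2), a difference of 0.49 (SE 0.07) and an adjusted p of 0.298. The nucleotide-sugar receptor P2ry14 followed at 0.96 (SE 0.20). Agtr1a, the angiotensin II receptor, measured 6.47, 5.95 and 5.76 in P467L arrays, against 6.46 and 6.34 in non-transgenic arrays, and the groups overlapped.

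Of 30 effectors 27 were measured, with a median of -0.02 and 3 higher past an unadjusted p of 0.05. The 2 with the smallest p were Adcy6, an adenylyl cyclase inhibited by Gi, at 0.39 (SE 0.07), and the protein kinase C isoform Prkcd at 0.21 (SE 0.04). Of 18 receptor kinases, arrestins and other modulators 16 were measured, with a median of 0.05 and 4 past an unadjusted p of 0.05, 3 higher and 1 lower. Ric8a and Ric8b, chaperones and exchange factors of G protein α subunits, had the smallest p, at 0.30 (SE 0.05) and 0.20 (SE 0.03). Ric8a measured 9.52, 9.45 and 9.42 in P467L arrays, against 9.12 and 9.20 in non-transgenic arrays, with an adjusted p of 0.363. Both genes had all P467L arrays above both non-transgenic arrays.

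**Figure D5:**
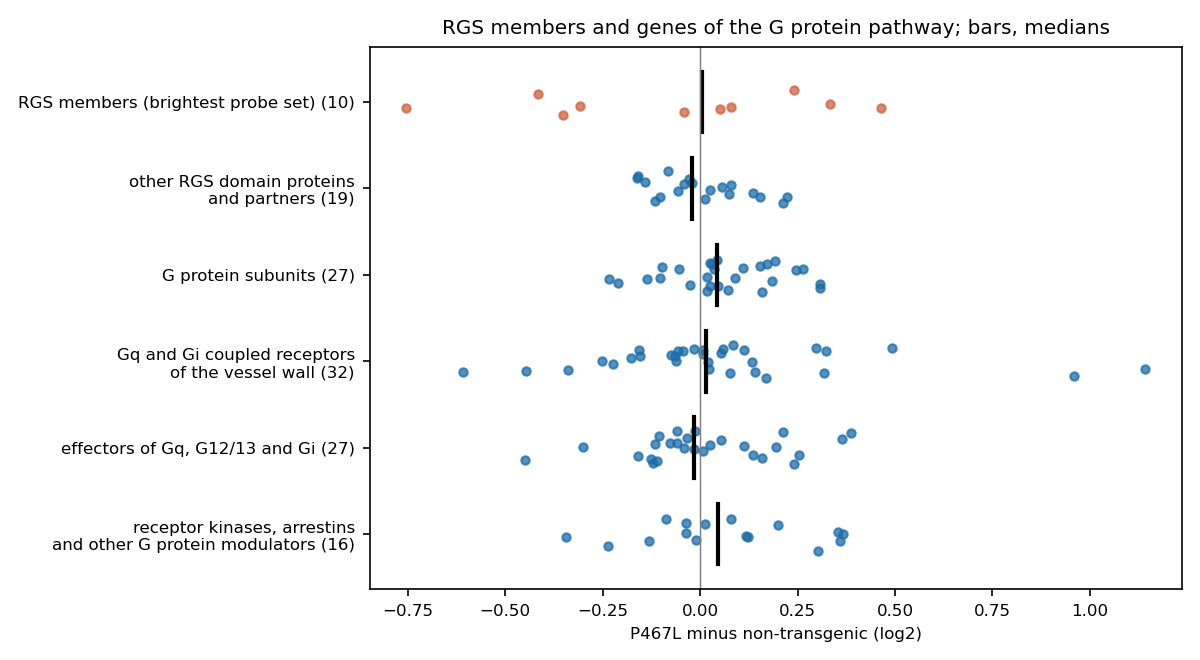
Each point is 1 gene's P467L minus non-transgenic difference (log2) by its brightest probe set, with the RGS members in the top row, the 5 lists of the G protein pathway below and bars at the medians; vertical scatter has no meaning. The medians lie between -0.02 and 0.05. The RGS members run from -0.75 to 0.47, the receptors from -0.61 to 1.14 and the effectors from -0.45 to 0.39. The other lists run from -0.16 to 0.22 (other RGS domain proteins), -0.23 to 0.31 (subunits) and -0.34 to 0.37 (receptor kinases, arrestins and other modulators).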

How the data were processed

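Per the submitters' processing notes, the authors used Affymetrix Power Tools with RMA, whose deposited output is in log2 units; no version is given in the sources used here. The method corrects background, quantile-normalizes the arrays and summarises each probe set, which removes any shift common to most transcripts. The values have 2 decimals and no detection call, and the number of arrays (3 and 2) limits the precision. The labels describe the pools as independent.

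P467L and non-transgenic arrays were set against each other by limma (version 3.58.1, run under R 4.3.3). The moderated fit (lmFit, then eBayes) was two-sided, had no covariate and 4.23 degrees of freedom in all, with Benjamini-Hochberg adjustment over 45037 probe sets and a threshold of 0.05; no filter was applied and 64 control probe sets were left out. Probe sets were named from the platform annotation, with symbols updated through NCBI gene numbers of GRCm38.p6: 34945 had 1 gene, 932 several and 9160 none. A gene of a list was read from its probe set with the highest mean, and 173 of 192 list entries were measured. The named genes are all members, and the 2 genes of each pathway list with the smallest p, with marker lists given by their levels. The single markers printed were picked after their values were seen. So were Gnb5, Rgs7bp, Rgs11, Gna11, Gnaq, Gnai2, Agtr1a and the neighbours Rgs8 and Rgs13. The members and lists were chosen with earlier results of these data known. The pipeline was tested on simulated data. Alternatives were array weights, a variance trend, filters on dim probe sets, renewed quantile normalization or median centring, a replicate block, leaving out each array, 1 probe set per gene and another threshold.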

Additional observations from a re-analysis of the deposited data

How the results depend on the processing

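The precision rests on 5 arrays, of which P467L replicate 1 and non-transgenic replicate 2 stood apart. The level filters, the variance trend and 1 probe set per gene leave a difference as it is, so they cannot change its sign. The replicate block gives the same differences as leaving out P467L replicate 3. The alternatives counted next include these, so their share is no measure of stability. Of 351 alternative values of RGS probe sets, 14 had the opposite sign, all in 7 probe sets of Rgs3, Rgs4, Rgs10 and Rgs16. For Rgs3 these were 0.02 (replicate block) and 0.037 (median centring) for 1449516_a_at and -0.025 for 1425701_a_at without both arrays that stood apart, a fit added after the data were seen. That fit gave -0.015 and -0.08 for Rgs4 (1416286_at and 1448285_at) and -0.035 for Rgs16 (1451452_a_at), whose value was -0.068 with array weights and -0.051 with weights estimated gene by gene. Median centring gave 0.005 for 1426037_a_at of Rgs16, and the replicate block 0.055 for Rgs10. With 1 array left out, values ran from -0.055 to 0.025 for 1449516_a_at, from -0.035 to 0.11 for 1451452_a_at and from -0.145 to 0.055 for Rgs10. The cause was not tested. The count of RGS probe sets called at an adjusted p of 0.05 stayed at 0 except with array weights, which called 4 (1419247_at and 1419248_at of Rgs2, 1420940_x_at and 1420941_at of Rgs5). That estimate did not converge and gave P467L replicate 2 a weight of 34.1 against 0.148 to 0.901 elsewhere; weights estimated gene by gene, added after the data were seen, called 0. The count over all probe sets was 2245 with array weights, 283 with weights estimated gene by gene, 15 with median centring, 10 with 1 probe set per gene and 17 at a threshold of 0.10, and 0 with each other alternative. With the replicate number as a block 0 probe sets were called, RGS probe sets included, with 6 lower and 2 higher RGS probe sets at an unadjusted p of 0.05; the numbers are not a known pairing, and deviations of same-numbered arrays correlated at 0.113 for replicate 1 and 0.008 for replicate 2. With 1 array left out, 0 were called in each case over all probe sets and over the RGS probe sets.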

Other observations

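Markers of the other cell types in the vessel gave these values. The 6 endothelial markers had 3 higher and 3 lower means in P467L aortas, a median difference of -0.03, and mean log2 levels of 8.41 to 8.56 in P467L arrays, against 8.66 and 8.62 in non-transgenic arrays. Emcn, an endothelial sialomucin, measured 6.66, 6.36 and 6.69 in P467L arrays, against 7.58 and 7.66 in non-transgenic arrays, and Pecam1, the endothelial adhesion molecule, measured 11.24, 11.11 and 11.20 in P467L arrays, against 11.28 and 11.27 in non-transgenic arrays. Tie1, an endothelial receptor kinase, went the other way, at 9.08, 8.88 and 8.86 in P467L arrays, against 8.69 in both non-transgenic arrays. The 4 measured adipocyte markers had mean levels of 8.03, 7.49 and 7.52 in P467L arrays, against 7.99 and 7.22 in non-transgenic arrays, so P467L replicate 1 and non-transgenic replicate 1 were highest. The 5 stomach markers had mean levels of 9.11, 9.07 and 8.53 in P467L arrays, against 8.30 and 12.1 in non-transgenic arrays. The neuronal markers had mean levels of 6.36 to 6.52 in P467L arrays, against 6.34 and 6.29 in non-transgenic arrays.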
